A study of Homo sapiens with 4 samples.

Results

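SR proteins and hnRNPs are RNA-binding proteins that steer the choice of splice sites in pre-mRNA. The members described here are the genes named SRSF followed by a number, the genes whose symbols start with HNRNP (named pseudogenes left out), TRA2A, TRA2B, SRRM1, SRRM2 and the 3 PTBP genes, with a level averaging at least 1 FPKM. Of the 25268 symbols in the table, 44 carried such a name and 42 passed this level. The 42 comprised 16 genes of the SR family (SRSF, TRA2 and SRRM), 23 hnRNP symbols and 3 PTBP genes. The 2 symbols left out, HNRNPCL1 and HNRNPCL2, were at or next to 0 FPKM in each library.

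The members were measured by RNA-Seq in SK-MEL-28, an established human melanoma cell line. The vector line (vector cells) was transduced with an empty pTRIPZ lentiviral vector, and the MYC-inducible line (MYC cells) with MYC behind a Tet-inducible promoter. Both were grown in medium with G418, without doxycycline (Dox) or with Dox for 54 h, and whether either line is a single clone is not stated. There were 4 libraries, 1 per condition, so differences between conditions could not be set against replicates and carry no p-value. FPKM counts fragments per length of transcript and per depth of the library, so levels of different genes can be set side by side. Changes are differences of log2(FPKM + 0.1), which understate the change of low genes. They are accompanied by an approximate counting error, which covers the sampling of fragments and not differences between cultures.

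SR proteins carry RNA recognition motifs and a tail rich in arginine–serine repeats. They bind exonic enhancers and help the spliceosome to recognise exons, and kinases of the SRPK family in the cytoplasm and of the CLK family in the nucleus phosphorylate the tail. Many hnRNPs bind silencer elements in exons and introns and oppose this recognition, while PTBP1 and its relatives bind pyrimidine-rich tracts. SRSF1, HNRNPA1, HNRNPA2B1 and PTBP1 are known as splicing factors under the control of MYC, and the last 3 of them act on the choice between alternative exons of the pyruvate kinase gene PKM. The comparison of Dox with no Dox in the MYC cells asks which of these genes respond to MYC induction, and the vector cells give the background of Dox itself.

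The FPKM values summed to between 692146 and 715495 per library, and the depth estimated from genes with very low values was approximately 34900000 to 41900000 fragments. MYC, the gene meant to be induced, had 58.3 and 54.8 FPKM in the vector cells without and with Dox and 76.5 and 87.1 FPKM in the MYC cells. On the log2 scale MYC differed with Dox by 0.19 in the MYC cells and by -0.09 in the vector cells, and the untreated lines differed by 0.39. The measured difference in MYC with Dox was thus under 1.2-fold in FPKM and smaller than that between the untreated lines. By other measures, the paper reported induction in the MYC-inducible cells: Dox raised MYC mRNA by RT–PCR and the activity of a reporter of MYC transcription. The melanocyte markers fixed for the check of the cell type summed to 8578, 8467 and 8433 FPKM in the first 3 conditions and to 4666 FPKM in the MYC cells with Dox. Most of this sum was PMEL, with 6178 and 3394 FPKM in the MYC cells without and with Dox. MITF had 90.0 and 67.2 FPKM there and SOX10 191 and 156 FPKM. DCT had 87.5 and 65.1 FPKM there, and 61.9 FPKM in the vector cells with Dox. All 8 of these markers were detected in each library. Of the 13 markers of keratinocytes, fibroblasts, leukocytes and endothelium, 10 were under 1 FPKM in every library, among them KRT5, COL3A1 and PTPRC at or next to 0, while KRT10, LUM and CD68 were not. The part of the lower melanocyte sum in the results below was not tested.

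With Dox in the MYC cells, 35 of the 42 members were higher and 7 were lower. In RNA from a whole culture, fewer cells with a transcript and less of it per cell cannot be told apart. Across the 11147 genes of the table at this level, here called all genes, 46.8% were higher. The median log2 change of the members was 0.21, against -0.03 for all genes, and the changes ran from -0.60 for HNRNPH2 to 0.45 for SRSF1. No member was higher by 1.5-fold, which 5.90% of all genes were. HNRNPH2 was lower by 1.5-fold, as were 8.85% of all genes. At a threshold of 1.2-fold, chosen after the values were seen, 12 members were higher and 3 were lower. The backgrounds were 21.0% higher and 26.1% lower, so the 28.6% of members past 1.2-fold upwards lay little above the share of all genes. Within 1.2-fold in either direction lay 27 members, or 64.3%, and 52.8% of all genes. No member was past 2-fold, which 1.05% of all genes were upwards and 2.05% downwards. With the libraries set to an equal sum of FPKM, 32 members were higher and 10 lower, while 41.4% of all genes were higher, and SRSF5, PTBP2 and PTBP3 changed sign. Under this scaling 7 members (16.7%) were higher by 1.2-fold, which is below the 17.6% of all genes. Scaled by the median ratio of the libraries, 14 members (33.3%) were higher by 1.2-fold, against 22.7% of all genes.

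In the vector cells, 20 members were higher and 22 lower with Dox, with a median log2 change of -0.01. Of all genes 54.2% were higher there, with a median of 0.01. HNRNPH2 was higher by 1.5-fold, which 0.709% of all genes were, and no member was lower by 1.5-fold, which 0.440% were. Past 1.2-fold were HNRNPH2 upwards and the read-through symbol HNRNPUL2-BSCL2 downwards, against 3.61% and 2.83% of all genes. Over the members, the log2 changes had a robust SD (scaled median absolute deviation) of 0.065 in the vector cells and 0.14 in the MYC cells, against 0.11 and 0.36 over all genes. These SDs are spreads across genes within a pair of single libraries. The change was larger in size in the MYC cells than in the vector cells for 36 of the 42 members (85.7%) and for 80.4% of all genes.

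**Figure D1:**
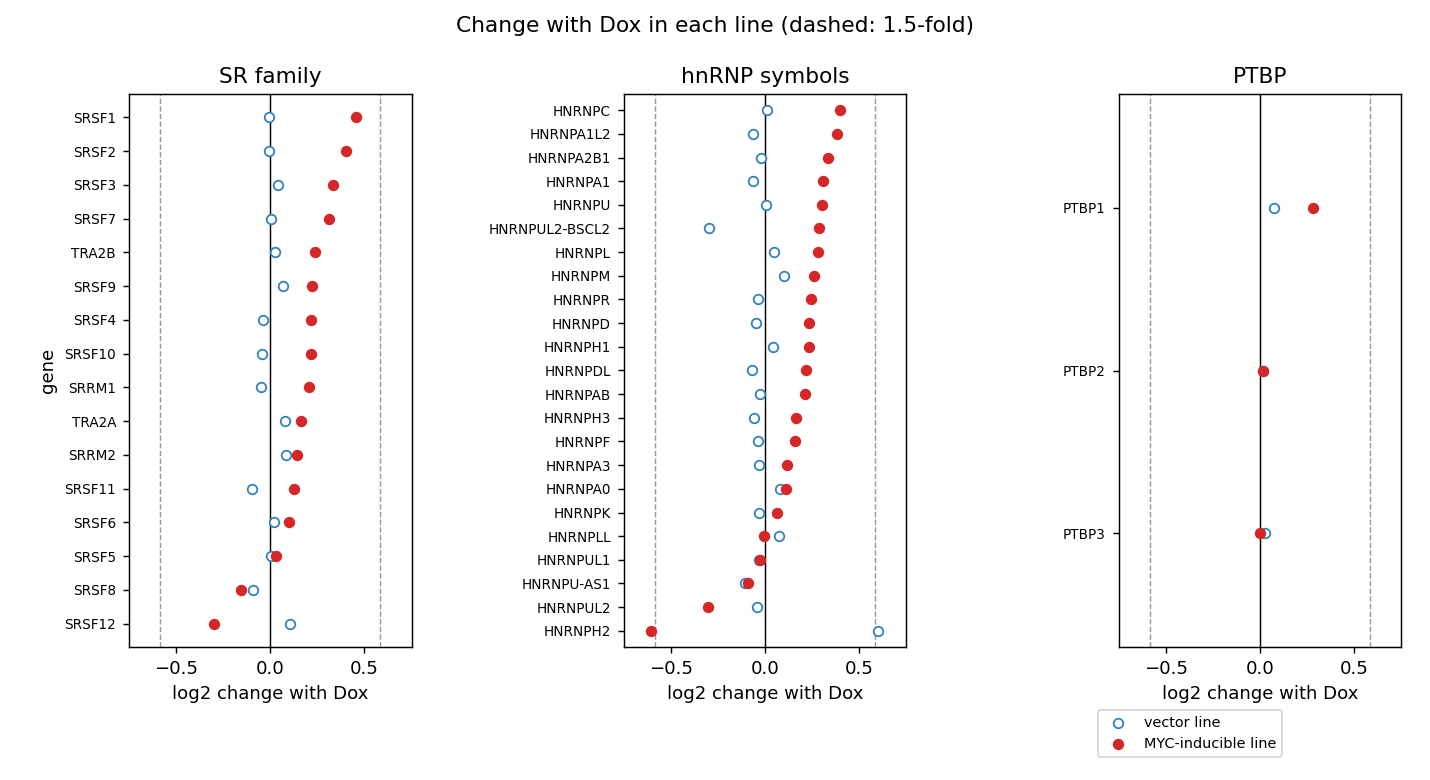
Log2 change with Dox of each of the 42 genes, on the horizontal axis, in the MYC cells (filled circles) and the vector cells (open circles), in panels for the SR family, the hnRNP symbols and PTBP. The filled circles run from -0.60 for HNRNPH2 to 0.45 for SRSF1, and most open circles lie close to 0, with dashed lines at 1.5-fold in either direction.

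Summed over the 42 genes, the level was 3618 and 3610 FPKM in the vector cells without and with Dox, 3678 FPKM in the MYC cells without Dox and 4370 FPKM with Dox. This was 0.515%, 0.508%, 0.531% and 0.611% of the FPKM of the libraries in the same order. The library of MYC cells with Dox was the highest of the 4 libraries for 35 members, or 83.3%, and for 40.2% of all genes. It was the lowest for 3 members, HNRNPH2, HNRNPUL2 and HNRNPU-AS1, and for 42.9% of all genes.

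MYC binds DNA with its partner MAX at the E-box CACGTG, a motif that is its own reverse complement. It was searched in RefSeq promoter windows on GRCh38.p14, from 250 bases before to 50 bases after the annotated start, of which 38 members had at least 1. The motif was in a window of 7 members (18.4%), namely HNRNPA3, HNRNPD, HNRNPDL, HNRNPH2, HNRNPH3, HNRNPM and HNRNPUL1, and of 13.2% of the 8381 genes tested that had a window. A gene was counted if any of its windows held the motif, so genes with more windows had more occasions to be counted. The 38 members had 55 windows, of which 8 (14.5%) held it, and the share per window was not calculated for the genes tested. HNRNPA1, SRSF2, TRA2A and HNRNPU-AS1 had no window. Stretches upstream of the start are shown for 5 of the members with the motif, the highest of them by change being HNRNPM, to set the motif beside the response, with the E-box in capitals and the strand of the gene.
HNRNPM: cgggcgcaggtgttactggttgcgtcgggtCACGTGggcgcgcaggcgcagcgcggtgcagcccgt
HNRNPD: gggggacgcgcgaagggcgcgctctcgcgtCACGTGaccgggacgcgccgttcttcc
HNRNPH3: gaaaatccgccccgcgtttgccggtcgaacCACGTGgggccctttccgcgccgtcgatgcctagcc
HNRNPA3: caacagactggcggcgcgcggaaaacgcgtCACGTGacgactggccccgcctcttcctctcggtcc
HNRNPH2: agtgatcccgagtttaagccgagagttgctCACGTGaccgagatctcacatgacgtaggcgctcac

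The stretches lie at chr19:8444903-8444968 on the plus strand for HNRNPM, chr4:82373992-82374048 on the minus strand for HNRNPD, chr10:68331613-68331678 on the plus strand for HNRNPH3, chr2:177212693-177212758 on the plus strand for HNRNPA3 and chrX:101408150-101408215 on the plus strand for HNRNPH2. The first base of the motif was 42, 27, 50, 71 and 42 bases before the start in the same order, and HNRNPH2 held a second copy 9 bases before the start. The log2 changes of these genes with Dox in the MYC cells were 0.26, 0.23, 0.16, 0.11 and -0.60. Not shown are HNRNPDL, with the motif 156 and 127 bases before annotated starts, and HNRNPUL1, with the motif after the start. Their log2 changes were 0.22 and -0.03. The 7 members with the motif had a median of 0.16, from -0.60 to 0.26, and the 31 with a window and no motif had a median of 0.22, from -0.30 to 0.45. SRSF1, SRSF3, HNRNPC and HNRNPA2B1, among those with the largest changes, had no CACGTG in this window, which says nothing of MYC binding elsewhere.

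SRSF1, the prototype SR protein, had the largest upward change of the members. It had 40.1 and 39.9 FPKM in the vector cells without and with Dox, 41.6 FPKM in the MYC cells without Dox and 57.0 FPKM with Dox. The first 3 libraries lay within 2 FPKM of each other, and the log2 change in the MYC cells was 0.45 with a counting error of 0.020. Of all genes, 10.2% were higher by as much. SRSF1 lies on chromosome 17 of GRCh37 from 56078280 to 56084707 on the minus strand.

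SRSF2, a component of nuclear speckles that binds exonic enhancers, had 153 FPKM in the vector cells with and without Dox, 151 FPKM in the MYC cells without Dox and 200 FPKM with Dox. Its log2 change was 0.40 with a counting error of 0.018. SRSF2 lies on chromosome 17 from 74730197 to 74733415, where its exons overlap those of MFSD11 on the annotation. SRSF3, the smallest of the classical SR proteins, had 109 and 112 FPKM in the vector cells and 110 and 139 FPKM in the MYC cells without and with Dox, a log2 change of 0.33. SRSF7, which like SRSF3 acts as an adaptor for mRNA export, had 84.5 and 84.8 FPKM in the vector cells and 82.0 and 102 FPKM in the MYC cells, a log2 change of 0.31. For each of these genes the library of MYC cells with Dox stood above the other 3, which were close together.

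Among the remaining SRSF genes the log2 changes in the MYC cells were between 0.22 and -0.30. SRSF9, a relative of SRSF1 with a short arginine–serine tail, was the most abundant SR gene, with 192 and 201 FPKM in the vector cells and 201 and 234 FPKM in the MYC cells. Its change of 0.22 stood beside one of 0.07 in the vector cells. On the log2 scale SRSF4 and SRSF10 differed with Dox by 0.22 each, SRSF11 by 0.13 and SRSF6 by 0.10. SRSF5 was level, with 81.3 and 81.7 FPKM in the vector cells and 80.1 and 82.0 FPKM in the MYC cells, with a log2 change of 0.03 and a counting error of 0.0291. SRSF8 and SRSF12, the least abundant SRSF genes, went the other way. SRSF8 had 8.55 and 8.02 FPKM in the vector cells and 9.06 and 8.13 FPKM in the MYC cells. The log2 change was -0.15, beside a counting error of 0.0529. Against the vector cells with Dox in place of the untreated MYC cells its sign was opposite, at 0.02. SRSF12 had 1.73 and 1.87 FPKM in the vector cells and 2.16 and 1.73 FPKM in the MYC cells. Its log2 change of -0.30 had a counting error of 0.12, and its level with Dox was that of the untreated vector cells.

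TRA2B and TRA2A bind purine-rich exonic enhancers and work together with SR proteins. TRA2B had 41.7 and 42.5 FPKM in the vector cells and 42.5 and 50.04 FPKM in the MYC cells, a log2 change of 0.24. On the log2 scale TRA2A differed with Dox by 0.16 in the MYC cells and by 0.08 in the vector cells. SRRM1 and SRRM2, large arginine–serine-rich proteins of the spliceosome and of nuclear speckles, differed with Dox by 0.21 and 0.14 in the MYC cells and by -0.05 and 0.08 in the vector cells. Over the 16 genes of the SR family, 14 were higher with Dox in the MYC cells and the median log2 change was 0.21. In the vector cells 9 were higher and the median was 0.01.

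HNRNPC, which binds uridine tracts in nascent transcripts, had the largest upward change of the hnRNP symbols. It had 161 and 162 FPKM in the vector cells and 162 and 213 FPKM in the MYC cells, and its log2 change was 0.40 with a counting error of 0.013. HNRNPC lies on chromosome 14. HNRNPA2B1, a core protein of hnRNP particles, had 266 and 263 FPKM in the vector cells and 262 and 330 FPKM in the MYC cells, a log2 change of 0.33. HNRNPA1, which represses exons and competes with SRSF1 for splice site choice, was the most abundant member. It had 629 and 601 FPKM in the vector cells and 626 and 775 FPKM in the MYC cells. Its log2 change was 0.31 with a counting error of 0.0063, and -0.06 in the vector cells.

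HNRNPA1 has near-identical copies elsewhere in the genome, between which reads could have been split. HNRNPA1L2, such a copy on chromosome 13, had 31.4 and 30.1 FPKM in the vector cells and 30.6 and 39.8 FPKM in the MYC cells, and its log2 change of 0.38 is uncertain for this reason. Summed with HNRNPA1L2 and the pseudogene HNRNPA1P10, HNRNPA1 had 686 and 661 FPKM in the vector cells and 688 and 851 FPKM in the MYC cells. The log2 change of this sum was 0.31 in the MYC cells and -0.05 in the vector cells.

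The next hnRNPs in order of change were HNRNPU, a nuclear matrix and chromatin-associated protein, HNRNPL, which binds CA repeats, and HNRNPM, with log2 changes of 0.30, 0.28 and 0.26 in the MYC cells. HNRNPM had 224 and 241 FPKM in the vector cells and 223 and 267 FPKM in the MYC cells. Its change of 0.10 in the vector cells was the largest upward one with Dox there among members averaging 20 FPKM or more. On the same scale HNRNPR differed with Dox by 0.25 and HNRNPD, also called AUF1 and known for binding AU-rich elements, by 0.23. HNRNPH1 and HNRNPF, which bind G-rich runs, differed with Dox by 0.23 and 0.16. HNRNPDL differed with Dox by 0.22 and HNRNPAB, with 199, 195, 194 and 225 FPKM in the 4 libraries, by 0.21. HNRNPH3 differed with Dox by 0.16, HNRNPA3 and HNRNPA0 by 0.11 each and HNRNPK, which binds C-rich sequences, by 0.06. HNRNPK was close to HNRNPC in level, at 166, 162, 173 and 180 FPKM in the 4 libraries, and its change was smaller.

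HNRNPLL and HNRNPUL1 had log2 changes of -0.01 and -0.03 in the MYC cells, beside counting errors of 0.0425 and 0.0231. After scaling by the median ratio of the libraries both were above 0. HNRNPUL1 had 47.5 and 46.5 FPKM in the vector cells and 49.7 and 48.8 FPKM in the MYC cells. HNRNPUL2, a relative of HNRNPU, had 19.7 and 19.2 FPKM in the vector cells and 19.8 and 16.1 FPKM in the MYC cells. The log2 change was -0.30, beside a counting error of 0.0334. HNRNPUL2-BSCL2 is a read-through symbol that spans HNRNPUL2 and BSCL2. It had 1.96 and 1.57 FPKM in the vector cells and 2.87 and 3.53 FPKM in the MYC cells, so it was higher in the library in which HNRNPUL2 was lower. Summed, HNRNPUL2 and the read-through symbol had a log2 change of -0.21 in the MYC cells and -0.06 in the vector cells. HNRNPU-AS1, an antisense RNA and no hnRNP itself, had 5.82, 5.40, 5.51 and 5.17 FPKM in the 4 libraries.

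HNRNPH2, a close relative of HNRNPH1 on the X chromosome, had the only change of at least 1.5-fold in either line. It had 4.05 and 6.19 FPKM in the vector cells without and with Dox and 5.49 and 3.58 FPKM in the MYC cells. The log2 change was -0.60 in the MYC cells and 0.60 in the vector cells, beside counting errors of 0.102 and 0.0997. The untreated libraries differed by 0.43. Its exons are shared with the read-through gene RPL36A-HNRNPH2, which had 43.7, 41.5, 44.3 and 36.9 FPKM in the 4 libraries. The sum of both was 47.8 and 47.7 FPKM in the vector cells and 49.8 and 40.5 FPKM in the MYC cells. For this sum the log2 change was 0.00 in the vector cells and -0.30 in the MYC cells, so HNRNPH2 was higher with Dox in the vector cells and the sum was level.

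PTBP1, which represses exons flanked by pyrimidine tracts, had 79.8 and 83.9 FPKM in the vector cells and 81.5 and 98.9 FPKM in the MYC cells. Its log2 change was 0.28 with a counting error of 0.019, and 0.07 in the vector cells. PTBP2, the form typical of neurons, was at 1.71 and 1.73 FPKM in the vector cells and at 2.16 and 2.19 FPKM in the MYC cells, a log2 difference of 0.02 with Dox in each line and of 0.32 between the untreated lines. PTBP3 was level across the 4 libraries, at 7.60, 7.74, 7.73 and 7.74 FPKM. PKM, the gene whose exon choice these factors are known for, had 1344 and 1634 FPKM in the vector cells and 1386 and 1423 FPKM in the MYC cells, and levels per gene do not hold the choice of its exons.

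**Figure D2:**
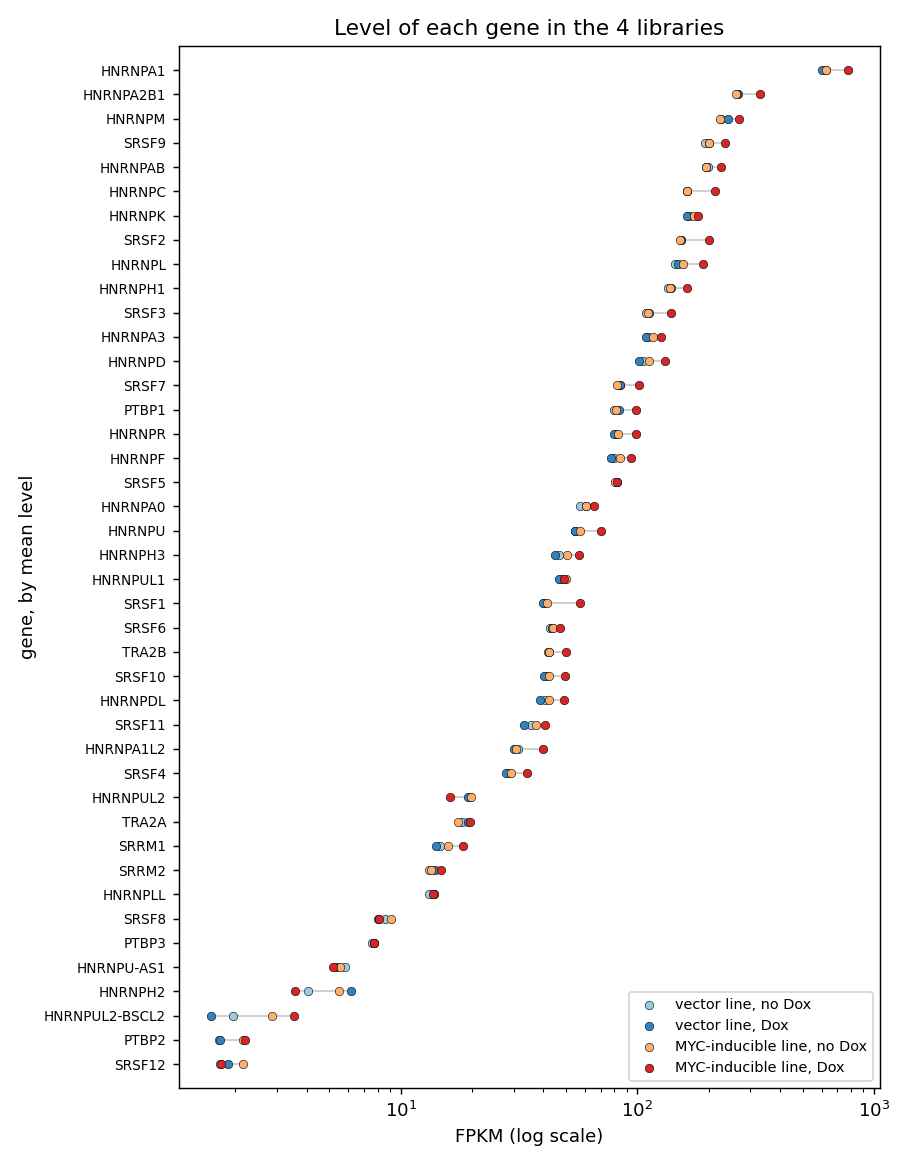
FPKM of each of the 42 genes in the 4 libraries on a log axis, with genes ordered by their mean level and a grey line from the lowest to the highest library. The point of the MYC cells with Dox is the rightmost for 35 genes, and the levels run from 775 FPKM for HNRNPA1 down to 1.57 FPKM for HNRNPUL2-BSCL2.

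Nearly all abundant members were higher in the library of MYC cells with Dox, while the share among the scarce ones was near that of all genes at their level. Of the 30 members averaging 20 FPKM or more, a level chosen after the values were seen, 29 were higher with Dox in the MYC cells, HNRNPUL1 being the exception. Their median log2 change was 0.23, and 52.1% of all 3699 genes at this level were higher, with a median of 0.02. Of the 12 members under 20 FPKM, 6 were higher and the median was 0.00, and 44.2% of all genes from 1 to under 20 FPKM were higher. Spearman's rho between mean level and change was 0.57 across the 42 members and 0.10 across all 11147 genes, as a description of genes within the same pair of libraries. The members under 20 FPKM also include HNRNPH2 and HNRNPUL2-BSCL2, whose exons overlap those of other genes, and the antisense RNA HNRNPU-AS1.

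**Figure D3:**
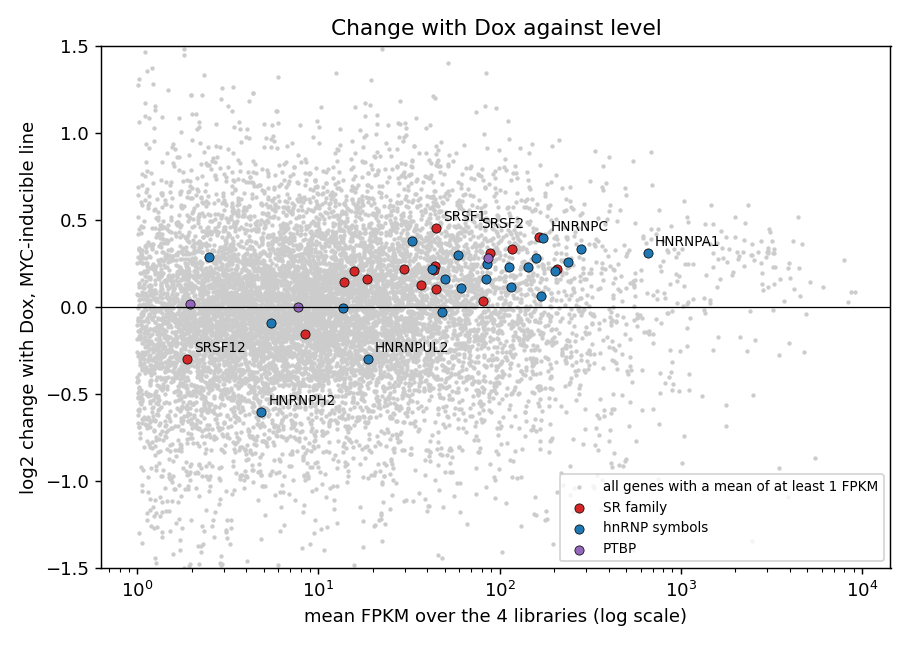
Log2 change with Dox in the MYC cells (vertical axis) against the mean FPKM over the 4 libraries (horizontal axis, log scale), for all genes in grey and the 42 members in colour by family; 86 of all genes lie outside the plotted range. All but 1 of the members at 20 FPKM or more lie above 0, below the largest changes of other genes at the same level.

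The untreated lines differed little. Of the members, 32 were higher and 10 lower in the untreated MYC cells than in the untreated vector cells, with a median log2 difference of 0.04, and 59.5% of all genes were higher. No member differed by 1.5-fold, against 0.592% of all genes that were higher and 0.287% that were lower. At 1.2-fold 4 members were higher and 0 lower, against 4.32% and 1.83% of all genes. The 4 were HNRNPUL2-BSCL2, HNRNPH2, PTBP2 and SRSF12, the members with the lowest means. Set against the vector cells with Dox, the MYC cells with Dox were higher for 37 members with a median of 0.25, and 49.2% of all genes were higher with a median of -0.01. HNRNPUL2-BSCL2 was higher and HNRNPH2 lower by 1.5-fold, against 6.50% and 8.62% of all genes. At 1.2-fold 21 members (50%) were higher in the MYC cells with Dox, against 22.6% of all genes. This comparison shares the library of MYC cells with Dox with that of Dox in the MYC cells.

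The kinases, methyltransferases and other proteins that act on or beside the members were listed for comparison. Of 7 SR protein kinases that passed the level filter, SRPK1 was higher by 1.5-fold with Dox in the MYC cells. SRPK1 had 10.1 FPKM in the vector cells with and without Dox and 10.8 and 20.2 FPKM in the MYC cells, a log2 change of 0.90. CLK1, CLK2, CLK3 and CLK4 had log2 changes of -0.17, -0.04, 0.13 and -0.08. The median of the 7 kinases was 0.03.

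Arginine methyltransferases modify hnRNPs, and transportins carry hnRNPs and SR proteins into the nucleus. They were listed together with WDR77, which belongs to neither group and had a log2 change of 0.52 in the MYC cells. All 8 genes of this list were higher with Dox in the MYC cells, 3 of them by 1.5-fold, against 46.8% and 5.90% of all genes. Their median log2 change was 0.45, and 0.03 in the vector cells. With the vector change taken off, 2 of the 8 were higher by 1.5-fold, as CARM1 also differed with Dox by 0.12 in the vector cells. PRMT1, the main enzyme for asymmetric dimethylation of arginine, had 158 and 169 FPKM in the vector cells and 155 and 294 FPKM in the MYC cells, a log2 change of 0.93. On the same scale PRMT5 differed with Dox by 0.74 and CARM1 by 0.64, while TNPO3, the importer of SR proteins, differed with Dox by 0.06.

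Proteins of the hnRNP type with other symbols were listed separately. Of 12 symbols listed, HNRPDL and HNRPLL stand in the table under the newer names of members, and 9 others passed the level filter. Their median was -0.03 in the MYC cells, with 4 higher and 5 lower, and it was 0.10 against the vector cells with Dox. SYNCRIP, also called hnRNP Q and a relative of HNRNPR, had 30.05 and 31.2 FPKM in the vector cells and 33.4 and 51.7 FPKM in the MYC cells, a log2 change of 0.63. RBMX, also called hnRNP G, had a log2 change of 0.45 and CIRBP by -0.30. Among 26 other splicing regulators the median was 0.14, with 17 higher, none higher by 1.5-fold and 2 lower by 1.5-fold. The 2 were ESRP1, an epithelial splicing regulator, which went from 11.004 to 6.69 FPKM, and SRRM3, which went from 1.33 to 0.705 FPKM.

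The 45 genes of the core spliceosome (SNRP, LSM, SF3 and PRPF symbols) had a median log2 change of 0.31 in the MYC cells and 0.03 in the vector cells. Some LSM genes of this list, such as LSM14A, act outside the spliceosome. Of the 45, 42 were higher, 28 by 1.2-fold and 2 by 1.5-fold, namely SNRPA1 at 0.73 and SNRPF at 0.64. For the SR proteins and hnRNPs these counts were 35, 12 and 0 of 42, and the shares of all genes were 46.8%, 21.0% and 5.90%. SNRPA1 also differed with Dox by 0.19 in the vector cells. With the vector change taken off, 1 of the 45 and 1 of the 42 were higher by 1.5-fold. The difference between these lists was not tested. Of 15 factors of nonsense-mediated decay, 12 were higher, with a median of 0.17, and UPF3B was higher by 1.5-fold at a log2 change of 0.73. UPF3B also differed with Dox by 0.15 in the vector cells. With the vector change taken off, 0 of the 15 were higher by 1.5-fold.

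**Figure D4:**
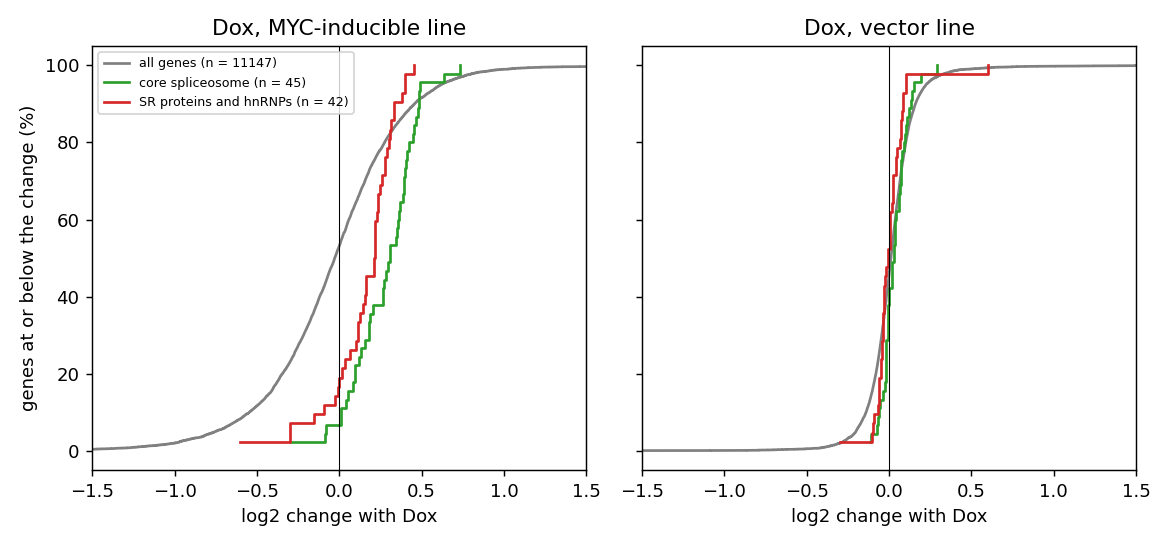
Share of genes (vertical axis, %) with a log2 change at or below the value on the horizontal axis, with Dox in the MYC cells (left) and the vector cells (right), for the 42 SR proteins and hnRNPs, 45 core spliceosome genes and all 11147 genes. In the MYC cells the curve of the members crosses 50% at 0.21 and that of the core spliceosome at 0.31, while in the vector cells the curves of both lists lie near 0.

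Many SR protein and hnRNP genes are known to control their own level through alternative exons that expose their transcripts to nonsense-mediated decay. In GENCODE release 44 on GRCh37, 33 of the 41 members found there (80.5%) had at least 1 transcript annotated as a target of this decay. They include the read-through symbol HNRNPUL2-BSCL2, whose only annotated transcript is of this kind. The share was 49.2% among all 9858 protein-coding genes tested. With a mean of at least 20 FPKM it was 83.3% for the members and 50.7% for all protein-coding genes. The members also had more annotated transcripts, with a median of 13 against 9 for all protein-coding genes tested. HNRNPA2B1 had 35 transcripts of 49 annotated as targets of this decay, and HNRNPA1 had 18 of 84. None were annotated for HNRNPA1L2, HNRNPAB, HNRNPH3, HNRNPF, HNRNPA0, PTBP3, HNRNPUL2 and HNRNPH2. FPKM per gene does not separate productive from unproductive transcripts. Exons of 20 members overlap those of another annotated gene, and whether reads were counted by strand is not given in the sources used here.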

How the data were processed

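RNA-Seq was performed by the authors on 4 libraries of SK-MEL-28 cells, 1 per condition. The deposited table holds FPKM values per gene symbol, made by the authors. The submitters' processing notes list TopHat2 2.0.14 and Cufflinks and the builds hg19 and GRCh37, and the annotation is not given in the sources used here. Of 27032 rows, 1 that names no gene was dropped. Values were summed for the 609 symbols found on more than 1 row, leaving 25268 symbols.

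Changes were calculated as differences of log2(FPKM + 0.1) over 11147 genes whose mean was 1 FPKM or more, without a test since each condition has 1 library. Genes were counted past 1.5-fold. Depth was estimated from 76 genes with low values and 1 annotated transcript, whose quartiles for the untreated vector cells were 34700000 and 40800000 fragments. Counting errors follow from it and from the length of the canonical transcript. The calls past 1.5-fold were tested on simulated data with changes of 2-fold and random sampling of fragments. Smaller changes and differences between cultures were not simulated.

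The members, lists and alternatives were chosen with earlier results of these data known. Named members are those past 1.5-fold in any comparison, the 6 largest and 6 smallest changes in the MYC cells, the 5 highest levels, the extremes of the vector cells, and SRSF1, HNRNPA1, HNRNPA2B1 and PTBP1. The others are named to account for each member. Of the lists, genes past 1.5-fold, SRPK1 and the CLK genes are named, and RBMX, CIRBP, TNPO3 and PKM were added after their values were seen. Alternatives were 2 other pseudocounts, other filters, 3 scalings, another reference, a 2-fold threshold, the mean, and symbols with several rows left out. A 1.2-fold threshold and leaving out 4 uncertain members were added after seeing the data. Protein sequences and splicing events were not analysed here. Python 3.11.15, numpy 2.4.6, pandas 2.3.3, scipy 1.17.1 and matplotlib 3.10.9 were used.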

Additional observations from a re-analysis of the deposited data

Results flagged for a closer look

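With Dox the log2 changes of HNRNPH2 and HNRNPUL2-BSCL2 went opposite ways in the lines, each by more than a robust SD of 0.11. This SD is the spread of the changes of all genes in the vector cells and is not fitted to genes of low level. The log2 change of HNRNPH2 was -0.60 in the MYC cells and 0.60 in the vector cells. That of HNRNPUL2-BSCL2 was 0.29 in the MYC cells and -0.30 in the vector cells. Its counting errors were 0.0900 and 0.128, the latter above the SD of 0.11. With 1 library per condition, this difference was not tested. Both symbols have low levels, and their exons are shared with a read-through gene or are those of one. The sum of HNRNPH2 and RPL36A-HNRNPH2 had log2 changes of -0.30 in the MYC cells and -0.002 in the vector cells. For the sum of HNRNPUL2 and HNRNPUL2-BSCL2 they were -0.21 and -0.06, so neither sum went opposite ways.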

How the results depend on the processing

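No paired analysis was possible because the 4 conditions hold 1 library each. The median log2 change of the 42 members was between 0.15 and 0.25 in the MYC cells and between -0.03 and 0.01 in the vector cells over the alternatives. With 338 recalculated summary values, 20 moved further than 1.5 times for counts or 0.11 for medians, and 2 changed sign by more than 0.11. Changes of sign by less were not counted, such as that of the PTBP median in the MYC cells. It went from 0.02 to -0.03 with the libraries set to an equal sum of FPKM. The causes were not tested, except that fewer members or another threshold change counts by construction. Higher by 1.5-fold in the MYC cells were 0 members and 1 against the vector cells with Dox, and 12 at 1.2-fold. HNRNPH2, the 1 member lower there, fell to a count of 0 with a pseudocount of 1 FPKM, median-ratio scaling, a filter at 5 FPKM, a 2-fold threshold or without 4 uncertain members, and the count was 3 at 1.2-fold. The count of 1 higher in the vector cells, also HNRNPH2, was 0 with a pseudocount of 1 FPKM, scaling to an equal sum or by the upper quartile, the filter at 5 FPKM, the 2-fold threshold or without the uncertain members. At 1.2-fold 1 member was lower in the vector cells and 4 were higher between the untreated lines. The median of PTBP was 0.14 with the filter at 5 FPKM and 0.24 against the vector cells with Dox, and that of the SR protein kinases was 0.15 against the latter. For hnRNPs under other symbols the sign changed, to 0.0947 as a mean and 0.10 against the vector cells with Dox, and the mean of the other splicing regulators was 0.0251. Of 293 values for single members, 12 moved, and SRSF8 changed sign by more than 0.11, to 0.0197 against the vector cells with Dox. Smaller changes of sign, such as those of SRSF5, PTBP2 and PTBP3 with an equal sum of FPKM, were not counted. The low members, such as SRSF12 and PTBP2 with counting errors of 0.12, are limited most by depth.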
